A study of Mus musculus with 6 samples.

Results

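The genes described here are 9 neurogenic transcription factor genes, taken by symbol from a table of 21286 genes. They are the proneural gene Neurog2, the neuronal differentiation genes Neurod1, Neurod2, Neurod4 and Neurod6, the related gene Bhlhe22, the oligodendrocyte lineage genes Olig1 and Olig2, and Insm1. All 9 were found. Basic helix-loop-helix (bHLH) proteins bind DNA as dimers, usually with a broadly made E protein as partner, at the short sequence called the E box. Proneural members such as Neurog2, which acts mainly in the cortex, push a dividing progenitor to become a neuron. Members of the Neurod group act after them in newly born and maturing neurons. Insm1 encodes a zinc finger protein, not a bHLH protein, and is made by neuron-producing progenitors and newborn neurons.

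RNA came from the lateral ganglionic eminence (LGE), the ventral forebrain region that forms striatal neurons and interneurons of the olfactory bulb, of mouse embryos at embryonic day 16.5. There were 3 libraries of wild type littermates and 3 of Dlx1/2 -/- mutants, homozygous for disrupted copies of the homeobox genes Dlx1 and Dlx2. Both groups had the same mixed C57BL/6J, 129S6 and CD1 background, and whether a library stands for 1 embryo or a pool is not stated. No batch is named, but library names differ in prefix between the genotypes, so a batch that follows them cannot be told apart from genotype. P-values therefore measure the spread between these libraries. Totals were 10711630 to 16588359 counts per library. The targeted genes were at 436 ± 29.8 and 16.8 ± 1.68 CPM (Dlx2) and at 857 ± 35.7 and 122 ± 14.4 CPM (Dlx1) in wild type and mutant (mean ± SD, n = 3), each apart in all libraries. CPM here are counts scaled to library size (TMM). Of 11 markers of the LGE and striatum, 11 were measured. In the mutant 9 were lower, 1 was higher (Gsx2) and 1 did not pass the test (Six3). Over all tested genes 12.8% were lower and 11.2% higher. Such a count compares the genotypes and cannot check which tissue was dissected. Six3 was at 158, 117 and 39.9 CPM in the wild type libraries and at 76.8, 78.3 and 90.7 CPM in the mutant ones. Nkx2-1, a factor of the neighbouring medial eminence, was at 37.7 to 114 CPM in wild type and 43.9 to 106 CPM in the mutant. In bulk tissue fewer cells of a type and less RNA per cell cannot be told apart.

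The 9 genes are small and have few exons (positions from GENCODE M21, GRCm38). Neurog2 is on chromosome 3 (127633135 to 127635631, plus strand), Neurod1 on chromosome 2 (79452521 to 79456751, minus strand), Neurod2 on chromosome 11 (98325415 to 98329648, minus strand), Neurod4 on chromosome 10 (130268152 to 130280240, minus strand) and Neurod6 on chromosome 6 (55677822 to 55681263, minus strand). Bhlhe22 is on chromosome 3 (18054174 to 18057517, plus strand) and Insm1 on chromosome 2 (146221921 to 146225020, plus strand). Olig2 (91225457 to 91228677) and Olig1 (91269772 to 91271933) are neighbours on the plus strand of chromosome 16, 41095 bases apart. Bhlhe22, Olig1 and Insm1 have 1 exon and the other genes have 2. Neurod1 lies within the annotated span of Cerkl on the same strand, and Cerkl had 0 counts in each wild type library and 6, 6 and 9 counts in the mutant libraries. Antisense noncoding genes overlap Neurod1 (Gm26755) and the end of Olig1 (Gm15966), and neither was found by symbol among the genes counted. With no strand setting stated, any reads from them cannot be told apart from those of Neurod1 and Olig1.

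The start regions of Neurog2, Neurod1, Neurod2 and Neurod6 are shown here, because the 3 Neurod genes moved together over the libraries while Neurog2 did not move with them. Each runs from 250 bases before to 50 bases after the RefSeq transcription start, 5′ to 3′ on the gene's strand (GRCm38.p6), and capitals mark E boxes, CANNTG, which reads the same on both strands.
Neurog2 (chr3:127632886-127633185, plus strand): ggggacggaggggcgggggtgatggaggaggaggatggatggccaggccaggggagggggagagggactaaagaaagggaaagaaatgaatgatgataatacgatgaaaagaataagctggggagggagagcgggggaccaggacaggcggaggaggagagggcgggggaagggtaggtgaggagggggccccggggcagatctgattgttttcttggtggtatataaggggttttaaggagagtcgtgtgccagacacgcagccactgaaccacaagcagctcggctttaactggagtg
Neurod1 (chr2:79456587-79456886, minus strand): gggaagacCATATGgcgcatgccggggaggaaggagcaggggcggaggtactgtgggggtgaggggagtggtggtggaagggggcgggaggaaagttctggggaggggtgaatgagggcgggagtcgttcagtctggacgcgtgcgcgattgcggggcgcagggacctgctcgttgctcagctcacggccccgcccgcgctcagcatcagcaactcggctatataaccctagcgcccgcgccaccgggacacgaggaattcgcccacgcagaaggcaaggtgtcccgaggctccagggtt
Neurod2 (chr11:98329596-98329895, minus strand): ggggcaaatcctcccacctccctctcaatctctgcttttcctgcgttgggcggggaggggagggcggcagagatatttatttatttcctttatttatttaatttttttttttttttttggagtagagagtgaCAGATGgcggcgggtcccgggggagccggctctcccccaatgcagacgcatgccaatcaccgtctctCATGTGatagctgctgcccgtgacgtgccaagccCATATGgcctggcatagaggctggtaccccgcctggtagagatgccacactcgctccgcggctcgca
Neurod6 (chr6:55681214-55681513, minus strand): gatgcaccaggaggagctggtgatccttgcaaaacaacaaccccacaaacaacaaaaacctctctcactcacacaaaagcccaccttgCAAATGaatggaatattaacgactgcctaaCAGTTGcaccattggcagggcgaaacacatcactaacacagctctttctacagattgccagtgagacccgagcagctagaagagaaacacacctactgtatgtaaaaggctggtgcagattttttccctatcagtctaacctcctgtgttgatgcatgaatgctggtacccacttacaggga

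The Neurod2 window held 3 E boxes, of which CAGATG is a form known to be bound by neurogenin and Neurod proteins. The Neurod6 window held 2, CAAATG and CAGTTG, the Neurod1 window held 1, CATATG, and the Neurog2 window held 0. Of the genes whose windows are not printed, Olig2, which also rose, held 0, and the windows of Neurod4 held 0 and 1 (CAGCTG). A link between E boxes and the changes was not tested. Of 32817 start regions of this length, 72.3% held at least 1 CANNTG, 17.2% held CAGATG or its reverse complement CATCTG, and 16.3% held CAGCTG, another common form. The homeodomain core TAATT (or AATTA on the other strand), the kind of sequence that Dlx proteins bind, was in 27.0% of all windows. Among the 6 genes with an entry it was in those of Neurod2 and Olig2, with 1 match each. These are matches of letters and not measured binding.

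Of the 9 genes, 8 had enough counts for the test and 6 of them were higher in the mutant, 0 were lower and 2 did not pass (quasi-likelihood F test of edgeR, p adjusted over 15326 genes, threshold 0.05). Bhlhe22, Neurod1, Neurod6, Neurod2, Insm1 and Olig2 rose, by 22.3-fold, 7.30-fold, 5.39-fold, 5.16-fold, 2.22-fold and 1.72-fold. Olig1 and Neurog2 did not pass, and Neurod4 was too rare to be tested. Among all tested genes, 24% were called in either direction, 11.2% as higher and 12.8% as lower. The 8 tested genes had a median log2 fold change of 1.76, beside 0.00 over all tested genes. Each of the 8 was above the filter's level of about 0.634 CPM in all 3 wild type libraries as well as in the mutant ones. The groups did not overlap for 7 of the 8, with the mutant above for 6 and below for 1. Over all tested genes 41.9% had groups apart, 20.7% with the mutant above and 21.2% with it below.

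**Figure D1:**
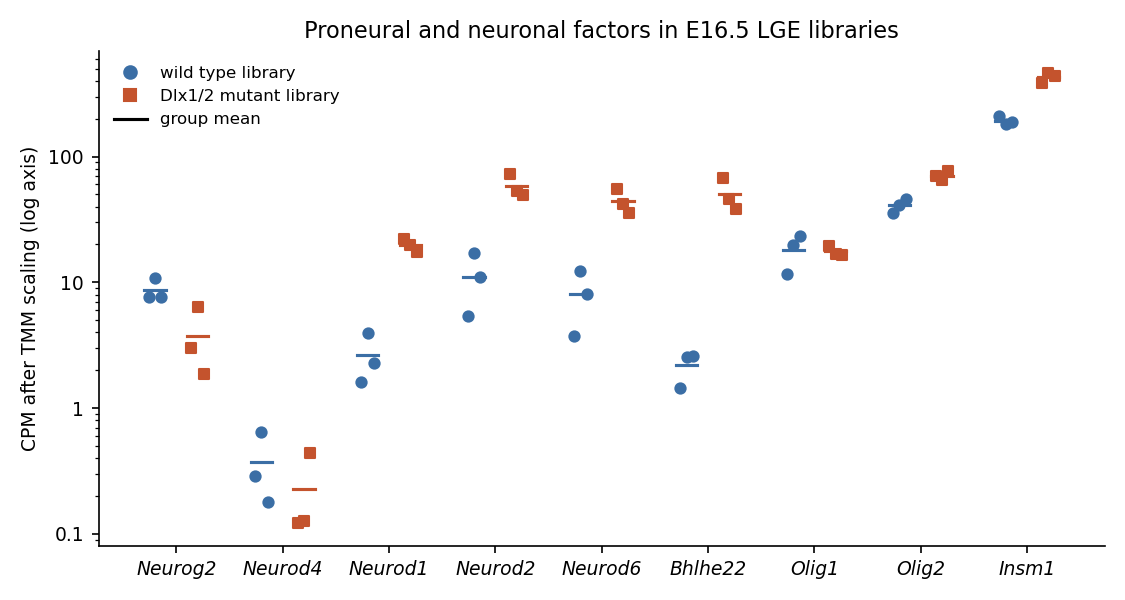
CPM after TMM scaling on a log axis for the 9 genes, with a circle for each wild type library, a square for each mutant library and a bar at each group mean. The mutant squares lie above all wild type circles for Neurod1, Neurod2, Neurod6, Bhlhe22, Olig2 and Insm1, below them for Neurog2, and overlap with them for Olig1 and Neurod4.

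Neurog2, the proneural factor that starts the excitatory neuron program in the cortex, was the single gene of the 9 whose mutant libraries all lay below the wild type ones. It was at 7.65, 10.9 and 7.66 CPM in wild type and at 2.98, 6.32 and 1.88 CPM in the mutant libraries. Mutant replicate 2 stood closest to wild type, and the mutant spread (SD 2.31 CPM) was as wide as 61.9% of its mean. The log2 fold change was −1.23 ± 0.53 (SE), with an edgeR adjusted p = 0.0515 that just missed the threshold. It passed in 4 of 10 alternatives, among them with DESeq2 (adjusted p = 0.00684), without the filter on low counts (0.0484) and without mutant replicate 2 (log2 fold change −1.84, 0.00454), and adjusted p ran from 0.00454 to 0.155 over all 10 alternatives.

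Neurod1, which follows proneural factors in newborn neurons, rose in every mutant library. It was at 1.62, 3.96 and 2.29 CPM in wild type and at 22.2, 19.7 and 17.4 CPM in the mutant, a log2 fold change of 2.87 ± 0.38 (SE, n = 3 per group; edgeR adjusted p = 1.23e-04). All 3 mutant libraries lay far above the highest wild type library. Within a library, counts of Neurod1 per count of Neurog2 were 0.217, 0.365 and 0.302 in wild type and 7.36, 3.10 and 9.10 in the mutant. The log2 ratio thus differed by 4.36 ± 0.52 (SE) between genotypes, with an exact two-sided permutation p = 0.1, the smallest that 3 against 3 libraries allow (adjusted p = 0.175 over 7 ratios).

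Neurod2 and Neurod6, factors of maturing excitatory neurons in the cortex and hippocampus, rose to almost the same degree. Neurod2 was at 5.35, 17.0 and 11.0 CPM in wild type and 73.1, 52.9 and 49.6 CPM in the mutant libraries. Neurod6 was at 3.73, 12.3 and 8.08 CPM in wild type and 55.7, 42.2 and 35.7 CPM in the mutant. In both genes wild type replicate 1 was lowest and replicate 2 highest, and mutant replicate 1 was highest. Their log2 fold changes were 2.37 ± 0.51 and 2.43 ± 0.53 (edgeR adjusted p = 0.00165 and 0.00160). The count ratio of Neurod6 to Neurod2 was 0.699 to 0.737 in wild type and 0.719 to 0.798 in the mutant. Its log2 difference of 0.08 ± 0.05 was within the spread of the libraries (exact permutation p = 0.3, adjusted p = 0.35). Counts of Neurod2 per count of Neurod1 were 3.23 to 4.74 in wild type and 2.69 to 3.30 in the mutant, and these ranges overlapped (exact permutation p = 0.2, adjusted p = 0.28).

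Neurod4, which acts after proneural factors in other parts of the nervous system, had 3, 10 and 3 counts in wild type and 2, 2 and 7 in the mutant. That is 16 reads against 11, a ratio of mutant to wild type of 0.615 per total count with a 95% Clopper-Pearson interval of 0.258 to 1.41 that covers counting error only. A floor of 3 counts equals 0.181 to 0.287 CPM here, and the interval leaves room for a fall or for a rise of up to 1.41-fold. Without the filter on low counts its adjusted p was 0.573 (edgeR).

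Bhlhe22, a bHLH repressor also known as Bhlhb5 that shapes neuron identity in the cortex, spinal cord and retina, had the largest change of the tested genes of the set. It was at 1.43, 2.53 and 2.59 CPM in wild type and at 67.1, 46.0 and 38.3 CPM in the mutant, a log2 fold change of 4.48 ± 0.36 (edgeR adjusted p = 1.93e-05). By size of change it was number 52 of the 15326 tested genes in either direction. Counts of Bhlhe22 per count of Neurod1 were 0.886, 0.642 and 1.13 in wild type and 3.02, 2.34 and 2.20 in the mutant, a log2 difference of 1.53 ± 0.27 (exact permutation p = 0.1, the smallest possible; adjusted p = 0.175).

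**Figure D2:**
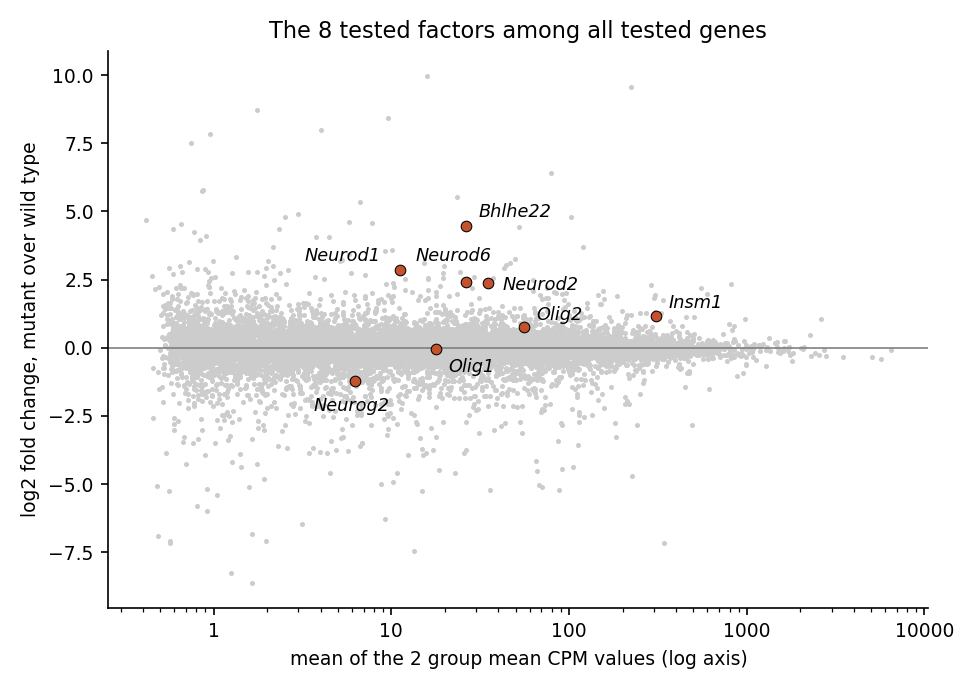
Log2 fold change of mutant over wild type against the mean of both group mean CPM values (log axis), with a grey point for each of 15326 tested genes and marked points for the 8 tested factors. Bhlhe22 (4.48), Neurod1 (2.87), Neurod6 (2.43) and Neurod2 (2.37) lie furthest above the zero line, Insm1 (1.15) and Olig2 (0.78) nearer to it, Olig1 (−0.06) on the zero line and Neurog2 (−1.23) below it.

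Markers of cortical excitatory neurons and their progenitors were read beside these genes, since Neurog2, Neurod2 and Neurod6 are strong cortical genes and the cortex borders the dissected region. Tbr1, a factor of newborn cortical neurons, was at 5.73, 19.9 and 12.2 CPM in wild type and 9.74, 6.76 and 4.21 CPM in the mutant, and Eomes, a factor of cortical intermediate progenitors, at 5.45, 14.5 and 5.85 CPM and 5.48, 5.94 and 1.57 CPM. Neither passed the test (log2 fold changes −0.889 ± 0.62 and −1.005 ± 0.76, edgeR adjusted p = 0.182 and 0.206). Without wild type replicate 1 Tbr1 did pass as lower (−1.21, adjusted p = 0.0405; 0.0405 to 0.546 over the alternatives). In wild type the libraries took the same order for Tbr1, Neurod2 and Neurod6, with replicate 2 highest and replicate 1 lowest. Counts of Neurod2 per count of Tbr1 were 0.933, 0.856 and 0.901 in the wild type libraries, and 7.51, 7.82 and 11.8 in the mutant libraries. Counts of Neurod6 per count of Tbr1 were 0.621 to 0.663 in wild type and 5.72 to 8.48 in the mutant, and those of Bhlhe22 were 0.127 to 0.250 and 6.79 to 9.10. Counts of Neurog2 per count of Eomes were 0.750 to 1.40 in wild type and 0.544 to 1.20 in the mutant, with overlapping ranges. These ratios to other genes were chosen after the values had been seen and are a description.

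**Figure D3:**
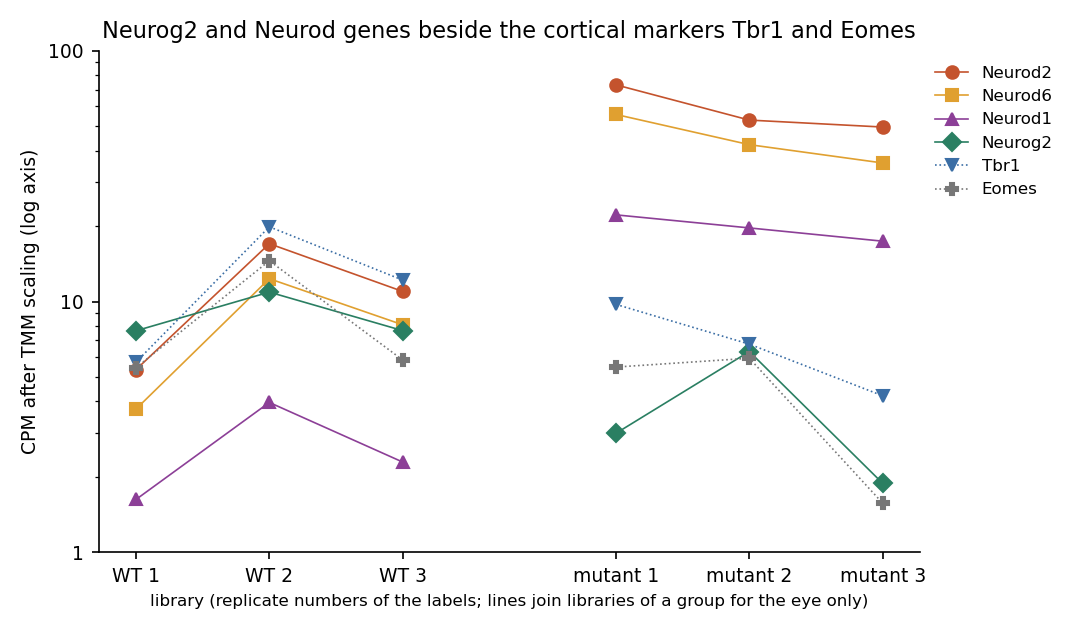
CPM after TMM scaling (log axis) in each library for Neurod2, Neurod6, Neurod1 and Neurog2 (solid lines) and for the cortical markers Tbr1 and Eomes (dotted lines), with lines joining the libraries of a group for the eye only. In wild type Neurod2, Neurod6 and Tbr1 are lowest in replicate 1 and highest in replicate 2, and in the mutant the Neurod genes lie above Tbr1, Eomes and Neurog2 in all 3 libraries.

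The whole list of cortical excitatory markers read here has 14 entries, of which 13 were found and 10 tested. In the mutant 2 were higher, 1 was lower and 7 missed the threshold, and the median log2 fold change was 0.38, where 11.2% of all tested genes were higher and 12.8% lower. Without wild type replicate 1 the lower count was 3. Those that rose were Slc17a6, a vesicular glutamate transporter also used widely outside the cortex (log2 fold change 1.90 ± 0.66), and Rorb, a nuclear receptor (1.14 ± 0.34). Cux2, an upper layer factor that subpallial cells also make, fell (−0.89 ± 0.03). The summed level of the list was 187 to 216 CPM in wild type and 151 to 181 CPM in the mutant. Cux2 alone gave 125 to 131 CPM of this sum in wild type and 68.8 to 71.1 CPM in the mutant. The sum therefore does not stand for the list as a whole. The defining cortical genes Slc17a7, the main cortical glutamate transporter, and Emx1 were at 0 to 0.519 and 0.0956 to 0.784 CPM in wild type, and at 0.122 to 0.253 and 0.189 to 0.365 CPM in the mutant. The list of hypothalamic, diencephalic and midbrain markers had 7 of 10 tested genes higher, and its summed level went from 42.3 to 119 CPM in wild type to 528 to 615 CPM in the mutant, where Otp gave 419 to 481 CPM. In wild type nearly all of this sum was Nkx2-1, at 37.7 to 114 CPM, which the medial eminence also makes, while Otp was at 0.325 to 0.965 CPM there. Several of its genes passed the filter through their mutant reads, so its count is a description. The part that cells of such regions have in the rise of Bhlhe22 and the Neurod genes was not tested.

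Insm1, a zinc finger repressor that promotes the generation of basal progenitors, was the most abundant of the 9 genes. It was at 209, 182 and 188 CPM in wild type and at 386, 459 and 439 CPM in the mutant, a log2 fold change of 1.15 ± 0.10 (edgeR adjusted p = 3.25e-05). The groups were far apart and each was tight, with an SD of 7.46% and 8.82% of the mean. Against Neurog2 it shifted from 27.2, 16.6 and 24.4 counts per count to 128, 72.3 and 229, a log2 difference of 2.53 ± 0.53 (exact permutation p = 0.1, the smallest possible; adjusted p = 0.175).

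Olig2 and Olig1 encode related factors of ventral progenitors and of the oligodendrocyte lineage. Olig2 rose, from 35.7, 40.8 and 46.2 CPM in wild type to 70.4, 64.5 and 76.3 CPM in the mutant (log2 fold change 0.78 ± 0.13, edgeR adjusted p = 0.00132). Its neighbour Olig1 was at 11.6, 19.8 and 23.2 CPM in wild type and 19.5, 16.9 and 16.5 CPM in the mutant, with groups that overlapped (−0.06 ± 0.31, adjusted p = 0.878; 0.15 without wild type replicate 3). Counts of Olig2 per count of Olig1 were 3.08, 2.06 and 2.00 in wild type and 3.61, 3.80 and 4.63 in the mutant. The log2 ratio differed by 0.77 ± 0.23 with the groups apart (exact permutation p = 0.1, the smallest possible; adjusted p = 0.175). Wild type replicate 1 was low in both genes and nearest to the mutant in this ratio. Nkx2-1, the factor of the medial eminence, took the same order in wild type, at 37.7, 73.7 and 114 CPM in replicates 1 to 3. In the mutant, at 43.9, 106 and 61.6 CPM, it took the order of neither Olig gene. A part of regional content in these values was not tested.

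Other genes of the oligodendrocyte lineage were read beside them. Of 17 listed, 15 could be tested. In the mutant 3 were higher and 2 lower, 10 missed the threshold, and the median log2 fold change was −0.02, where 11.2% of all tested genes were higher and 12.8% lower. The precursor receptor Pdgfra rose from 14.0 to 22.8 CPM in wild type libraries to 28.6 to 34.0 CPM in mutant ones (log2 fold change 0.70 ± 0.23, edgeR adjusted p = 0.0187), a call lost without mutant replicate 1 (0.0670) or 3 (0.0562; 5.65e-04 to 0.0670 over the alternatives). Counts of Olig2 per count of Pdgfra were 1.97 to 2.56 in wild type and 2.07 to 2.40 in the mutant, while those of Olig1 were 0.829 to 1.01 and 0.519 to 0.592. Bcas1, a marker of newly formed oligodendrocytes, rose (1.47 ± 0.22), and so did the matrix proteoglycan gene Vcan (0.53 ± 0.09). Sox8, an SRY-box factor, fell from between 178 and 195 CPM to between 75.6 and 85.6 CPM (−1.19 ± 0.07). Its wild type level was far above that of Pdgfra, and in bulk tissue its reads cannot be assigned to this lineage. Zfp488, a rare zinc finger gene, fell from between 0.956 and 1.21 CPM to between 0.0632 and 0.244 CPM (−2.67 ± 0.47). Zfp488 had 10, 17 and 20 counts in wild type and 4, 1 and 3 in the mutant, and passed the filter by its wild type reads. Sox10, the defining factor of the lineage, was at 2.01 to 6.21 CPM and 2.40 to 3.71 CPM (adjusted p = 0.722), and the myelin gene Mag was near 0 in both groups, at no more than 0.442 CPM.

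The order of the genes by level changed between the genotypes. In FPKM, which accounts for gene length, wild type LGE had Insm1 first (61.6 ± 3.79), then Olig2 (16.7 ± 2.32), Olig1 (8.36 ± 2.82), Neurog2 (3.89 ± 0.864), Neurod6 (3.73 ± 2.02), Neurod2 (3.52 ± 1.87), Neurod1 (0.957 ± 0.446), Bhlhe22 (0.650 ± 0.201) and Neurod4 (0.111 ± 0.0737). The ranges of the libraries overlapped between Neurog2, Neurod6 and Neurod2, and between Neurod1 and Bhlhe22. In the mutant Insm1 (139 ± 11.8) and Olig2 (29.1 ± 2.31) stayed ahead, followed by Neurod6 (20.9 ± 4.92), Neurod2 (18.8 ± 4.19) and Bhlhe22 (15.2 ± 4.59), which overlapped in turn. Olig1 (8.22 ± 0.804) and Neurod1 (7.30 ± 0.925) overlapped next, and Neurog2 (1.69 ± 1.05) and Neurod4 (0.0689 ± 0.0544) came last.

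The genes whose level over the 6 libraries ran closest to each risen gene were found by the distance between centred log2 CPM profiles, a description in which genotype sets most of the pattern and all points share the same libraries. Neurod2 and Neurod6 were nearest to each other, at a distance of 0.152. The next after them was Htr1a, a serotonin receptor gene, for Neurod2 (0.596), and Neurod1 for Neurod6 (0.691). Neurod1 lay nearest to Ebf2, a helix-loop-helix factor of the Ebf family (0.597), and Spp1, a secreted phosphoprotein gene (0.659). Bhlhe22 lay nearest to Nhlh1, another bHLH gene (0.769), then to the LIM homeobox gene Lhx5 (0.895) and the progenitor homeobox gene Gsx1 (1.06). Wild type means of Ebf2, Nhlh1 and Lhx5 were only 0.316, 0.483 and 0.0417 CPM, so their distances rest on few wild type reads. Nearest to Insm1 were Sox3, a progenitor factor (0.150), Notch1, the receptor that holds progenitors back (0.150), and Spsb4 (0.164). For Olig2 they were Tcf7l2 (0.102), Psmb10 (0.104) and Zdbf2 (0.140).

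Among other bHLH genes of neural development, 10 of 14 read here were found and 4 were tested. All 4 were higher, as were 11.2% of all tested genes. Nhlh1, which follows neurogenin activity in newborn neurons, went from 0.382, 0.584 and 0.482 CPM to 9.80, 8.34 and 7.10 CPM (log2 fold change 4.07 ± 0.20). Its relative Nhlh2 went from 0, 0.584 and 0.482 CPM to 5.11, 3.73 and 2.20 CPM (3.20 ± 1.24). Tal2, a midbrain factor, changed by 5.35 ± 0.72, and Tal1, a factor of blood and of midbrain and spinal neurons, by 0.97 ± 0.27, a call lost in 6 of 10 alternatives. Of 4 tested markers of red blood cells 1 was higher, the globin gene Hbb-bt (0.77 ± 0.16, edgeR adjusted p = 0.00307), whose reads may be split with its near-identical copy Hbb-bs, and 3 did not pass. The summed level of the list was 433 to 641 CPM in wild type and 579 to 774 CPM in the mutant, and its part in the change of Tal1 was not tested. Nhlh1, Nhlh2 and Tal2 passed the filter by their mutant reads, so this count favours genes that are high in the mutant. Ascl2, Atoh7, Atoh8, Olig3, Bhlhe23 and Bhlha15 were at no more than 0.822 CPM in any library.

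The partner genes of these factors were read as well. Over all tested genes 11.2% were higher and 12.8% lower. The 3 E protein genes rose, Tcf3 by 0.33 ± 0.08, Tcf12 by 0.51 ± 0.11 and Tcf4 by 0.61 ± 0.23 on the log2 scale (edgeR adjusted p = 0.0116, 0.00398 and 0.0315). The call of Tcf4, whose groups overlapped, was lost without wild type replicate 2 (0.0949) or 3 (0.0964) and without mutant replicate 1 (0.103) or 2 (0.0990), and its adjusted p ran from 4.85e-04 to 0.103 over the alternatives. Id proteins lack the DNA-binding part and capture E proteins. Of the 4 Id genes 2 rose, Id2 from between 8.80 and 10.3 CPM to between 77.2 and 93.8 CPM (3.10 ± 0.11) and Id4 by 0.31 ± 0.06. Id3 (0.45 ± 0.16, adjusted p = 0.0657) and Id1 (−0.10 ± 0.18, adjusted p = 0.704) did not pass.

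**Figure D4:**
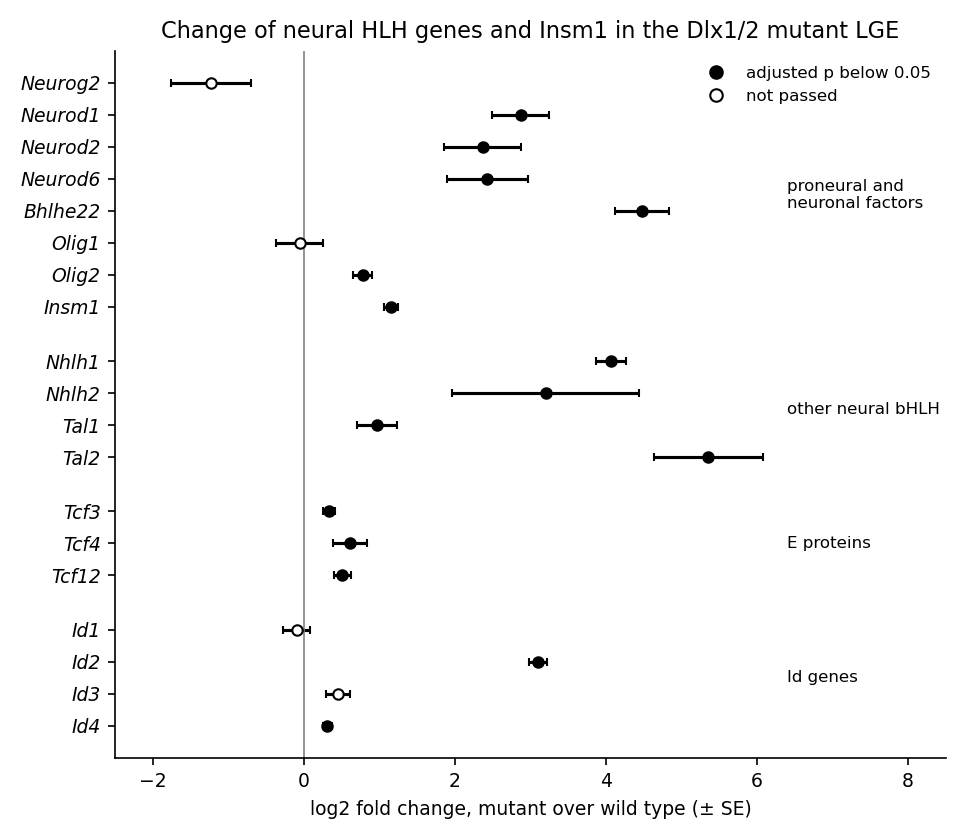
Log2 fold change of mutant over wild type with its SE for the 8 tested factors, other neural bHLH genes, E protein genes and Id genes, filled where the adjusted p was below 0.05. Bhlhe22, Nhlh1 and Tal2 lie beyond 4, the E protein genes between 0.33 and 0.61, and Neurog2 is the open point furthest below zero, at −1.23.

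Genes known to act downstream of proneural factors were read from a list of 18. All 18 could be tested. In the mutant 11 were higher and 3 lower, and 4 missed the threshold, where 11.2% of all tested genes were higher and 12.8% lower. The median log2 fold change was 0.38, beside 0.00 over all tested genes. The Notch ligand genes Dll3 (2.02 ± 0.08) and Dll1 (1.80 ± 0.08), the bHLH gene Hes6 (1.90 ± 0.05), the growth arrest gene Gadd45g (1.94 ± 0.06), the zinc finger gene St18 (1.98 ± 0.16), the antiproliferative gene Btg2 (1.65 ± 0.10) and the Notch modifier Mfng (1.04 ± 0.11) rose most. Stmn2, a microtubule regulator of growing axons, fell from 554, 630 and 617 CPM to 405, 397 and 376 CPM (−0.61 ± 0.07). Cdkn1c, a cell cycle inhibitor, and the corepressor gene Cbfa2t3 fell as well (−0.52 ± 0.15 and −0.60 ± 0.23, edgeR adjusted p = 0.0212 and 0.0417). Cdkn1c lost its call without wild type replicate 2 or 3 and without mutant replicate 1 or 3 (adjusted p = 0.0759, 0.0654, 0.0772 and 0.0642), and Cbfa2t3 without any 1 of the 3 wild type libraries or mutant replicate 1 or 2 (0.0626 to 0.129). Over all alternatives their adjusted p ran from 0.00324 to 0.0772 and from 0.00159 to 0.129. The list's lower count was then 1 or 2. Dcx, a general marker of young neurons, was at 1493 to 1613 CPM and 1417 to 1563 CPM (adjusted p = 0.468), and Rnd2, a target of Neurog2 in the cortex, was at 22.8, 48.1 and 27.3 CPM and 34.9, 33.9 and 21.8 CPM (adjusted p = 0.799).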

How the data were processed

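Total RNA of dissected LGE tissue was sequenced, and a table per gene was deposited. The counts that the authors deposited are raw whole numbers per gene, per the file headers, and the FPKM values beside them are the authors' own. They equalled count per total up to a factor per gene in 11418 of the 11418 genes above 50 counts throughout (tolerance 1e-04). The p-value column that the authors deposited was not used. Per the submitters' processing notes, HISAT2 2.0.4, StringTie 1.3.0 and edgeR were used, with the builds GRCm38.p4 and mm10. The counting tool, annotation release and strand use were not given in the sources used here.

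Testing was done on the counts with edgeR 4.0.16 in R 4.3.3 (filterByExpr by group, TMM, glmQLFit and glmQLFTest, two-sided, Benjamini-Hochberg over 15326 genes, threshold 0.05). The SE comes from log2 CPM with 0.5 added to each count. Ratios of 2 genes within a library, with 0.5 added where they were tested and as counted where only their ranges are given, were compared by exact permutation. The rule for named genes was all 9 genes, the Dlx targets, the bHLH, E protein and Id lists in full, up to 6 members of each other list with the smallest adjusted p or at near 0, and 3 neighbours of each called gene. Cerkl, Mfng, Stmn2, Cdkn1c, Cbfa2t3, Dcx, Rnd2, Sox10, Nkx2-1, Gsx2 and Six3 fall outside it and were named after their values were seen. The members and lists were chosen with earlier results of these data known, and a few listed genes are not reported here and stay out of the list counts. The scripts were tested on simulated data. Alternatives were a replicate block, RLE scaling, no filter, DESeq2 1.42.0, and leaving out each library. Start regions are from RefSeq, which had 6 of the 9 genes.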

Additional observations from a re-analysis of the deposited data

How the results depend on the processing

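Under the 10 alternatives the 6 called genes of the set kept their direction and their call, and 6 of them were called higher in each. The log2 fold change ran from 4.22 to 4.64 for Bhlhe22, 2.66 to 3.29 for Neurod1, 2.06 to 2.79 for Neurod2, 2.12 to 2.86 for Neurod6, 0.69 to 0.88 for Olig2 and 1.10 to 1.22 for Insm1. Neurog2 stayed lower and was called in 4 of 10 alternatives. Olig1 changed sign in 1, at 0.15 without wild type replicate 3, within a leave-one-out range of −0.29 to 0.15, and Id1 ranged from −0.20 to 0.0227. The labels do not say that the replicate numbers pair the samples. Deviations of same-numbered libraries from their group means correlated at −0.176, 0.0426 and −0.168, and no library correlated best with its own number. With 3 libraries per group these deviations are not independent, so they cannot settle whether the numbers mark pairs. With the replicate block 1223 genes were higher and 1458 lower across the table, beside 1715 and 1958 without it, and Neurog2 had a log2 fold change of −1.33 with edgeR adjusted p = 0.0187. Leaving out 1 library gave 1211 to 1626 higher and 1416 to 1956 lower genes. Among downstream genes the lower count was then 1 to 2, and among cortical markers 1 to 3. The log2 ratio of Neurod4 to Neurog2 differed by 0.68 ± 1.04 between genotypes (exact permutation p = 0.7, adjusted p = 0.7). Leaving out 1 library, this difference ranged from −0.25 to 1.41. The libraries held 2 to 10 counts of Neurod4 and 30 to 168 counts of Neurog2. Without the filter Neurod4 had a log2 fold change of −0.70 (adjusted p = 0.573). The cause of these shifts was not tested. Low depth limits what can be said of Neurod4 and the rare bHLH genes.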
